A study of Mus musculus with 9 samples.

Results

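The sodium pump of the heart, the small FXYD proteins that regulate it and the sodium-calcium exchanger were followed in mouse hearts after myocardial infarction (MI) through 6 genes: Atp1b1, Atp1b3, Fxyd1, Fxyd5, Fxyd6 and Slc8a1. The genes were chosen by symbol, and each had its own entry among the 24964 genes of the count table. The study compared bulk RNA of hearts from 9 male mice, 8 weeks old, whose strain is given as C57BL/6JR. MI 28 d hearts and MI 7 d hearts came from mice whose left anterior descending coronary artery had been tied off, taken 28 and 7 days after MI, and Sham hearts came from mice with the same surgery without the ligation, with 3 mice per group. The sources used here do not say when Sham hearts were taken, nor whether the whole heart or a zone of it was used, so the parts of infarct, border and distant muscle in an MI library are unknown.

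The sodium pump, or Na,K-ATPase, moves sodium out of the cell and potassium in at the cost of ATP. Its alpha subunit carries the catalysis, its beta subunit is needed for folding and delivery of the alpha subunit to the cell surface, and FXYD proteins are small single-span membrane proteins that tune its affinity and turnover. In heart muscle the sodium gradient set by the pump drives the sodium-calcium exchanger, which removes calcium from the myocyte after each beat, so that pump inhibition, as by cardiac glycosides, raises contractile force.

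Libraries held 15300344 to 15770389 counts in MI 28 d hearts, 18355720 to 19238101 in MI 7 d hearts and 12351525 to 13629120 in Sham hearts. All 12 cardiomyocyte markers were present in every library, so the tissue label fits its markers. The Sham libraries differed from each other far less than the MI libraries did, with a biological coefficient of variation of 24.1% in MI 28 d, 17% in MI 7 d and 2.76% in Sham. The chi-square per degree of freedom between libraries of a group, which counting error alone would put near 1, was 31.4 to 71.2 in MI 28 d, 18.8 to 29.3 in MI 7 d and 1.67 to 1.8 in Sham. The labels call the Sham libraries separate mice, but this spread is little more than counting error and may not be that between mice. The edgeR comparisons against Sham were therefore also fitted with the Sham libraries summed to 1. The tests of count ratios given below were not repeated in that setting. MI 28 d replicates 1 and 3 and MI 7 d replicate 3 carried over 100 CPM (counts scaled to a common library total) of the adipocyte gene Adipoq, between 122.4 and 217.1 CPM. Leaving these libraries out, a setting chosen after seeing the data, left a single MI 28 d heart, so it gives no replicate check at 28 d. CPM were computed on library sizes scaled by TMM, which sets the bulk of genes level between libraries. Differences were tested with edgeR's quasi-likelihood test over 14347 genes, with an adjusted p under 0.05 as the threshold. Since both comparisons against Sham use the same 3 Sham hearts, they are not independent of each other.

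All 6 genes passed the test at 7 d against Sham: Atp1b3, Fxyd5 and Fxyd6 rose, and Atp1b1, Fxyd1 and Slc8a1 fell, of which Atp1b1 and Slc8a1 did not pass with libraries scaled by total count alone. The background was high, as 74.4% of all tested genes passed in that comparison (39.0% higher and 35.4% lower), so the count of 6 says little about these genes in particular. At 28 d against Sham 5 of 6 passed, beside 55.1% of all genes (29.5% higher and 25.6% lower): Atp1b1, Atp1b3, Fxyd5 and Fxyd6 rose, and Fxyd1 fell. At 28 d against 7 d all 6 passed, beside 55.2% of all genes (29.1% higher and 26.1% lower): Atp1b1, Fxyd1 and Slc8a1 rose, and Atp1b3, Fxyd5 and Fxyd6 fell. The median log2 fold change of the 6 genes was 0.26 at 7 d and 0.54 at 28 d against Sham, and 0.03 at 28 d against 7 d, where the medians over all genes were 0.06, 0.05 and 0.03. With libraries scaled by total count alone, the median of all genes moved up by 0.33 at 7 d and by 0.25 at 28 d against Sham. Under that scaling 7410 genes were higher and 3587 lower at 7 d, against 5602 and 5074 with TMM, and 6479 were higher and 2278 lower at 28 d, against 4233 and 3673 with TMM. Of the 6 genes, 3 were then called higher and 1 lower at 7 d, and 4 higher and 0 lower at 28 d.

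**Figure D1:**
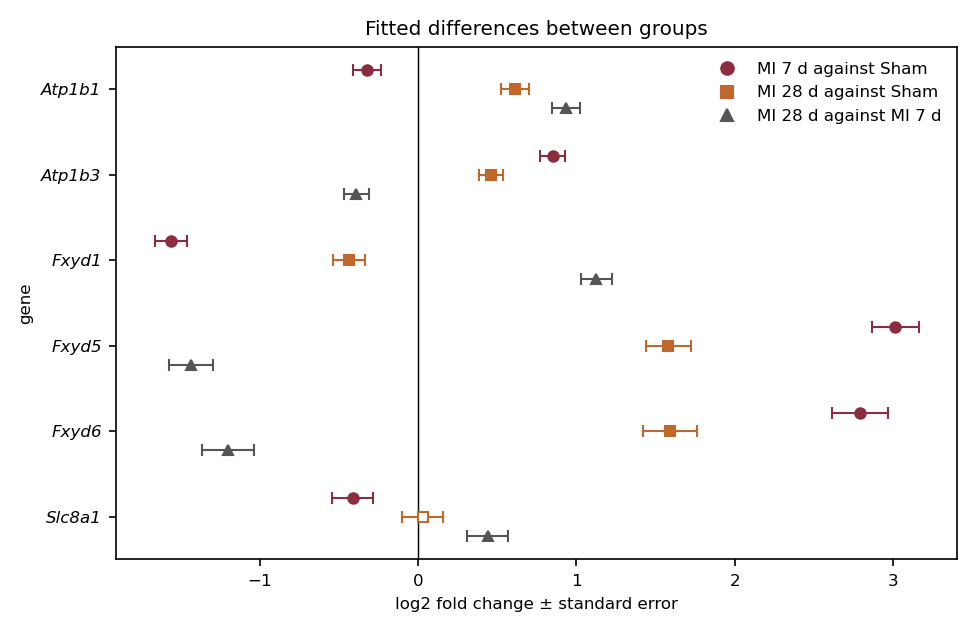
Fitted log2 fold change (horizontal axis, points, with bars of 1 standard error) of the 6 genes for MI 7 d against Sham (circles), MI 28 d against Sham (squares) and MI 28 d against MI 7 d (triangles), from edgeR with TMM scaling. Filled symbols passed the adjusted p threshold of 0.05. Fxyd5 and Fxyd6 lie farthest right at 7 d (3.01 and 2.79), Fxyd1 farthest left (-1.56), and Atp1b1 lies on opposite sides of 0 at 7 d and 28 d, which holds with TMM but not with total counts alone.

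Atp1b1 encodes beta-1, the main beta subunit of heart muscle, and lies on chromosome 1 at 164437109 to 164458355, minus strand (GRCm38, GENCODE M21). Its exons share 192 bases with those of Nme7 on the other strand, and since the strand setting of the counting is not given, reads there cannot be told apart. Atp1b3 encodes beta-3, a widely expressed beta subunit, and lies on chromosome 9 at 96332655 to 96364442, minus strand. The bases just upstream of these genes are shown because the pair moved in opposite directions at 7 d with TMM scaling, though Atp1b1 was level (0.01) with total counts alone. Both come from RefSeq (GRCm38.p6) and run 5′ to 3′ on the strand of the gene, chr1:164458356-164458605 for Atp1b1 and chr9:96364443-96364681 for Atp1b3, the second stopping just before the first annotated exon. Capitals mark GC boxes (GGGCGG, or CCGCCC on the opposite strand) and a CCAAT box (CCAAT, or ATTGG on the opposite strand).
Atp1b1: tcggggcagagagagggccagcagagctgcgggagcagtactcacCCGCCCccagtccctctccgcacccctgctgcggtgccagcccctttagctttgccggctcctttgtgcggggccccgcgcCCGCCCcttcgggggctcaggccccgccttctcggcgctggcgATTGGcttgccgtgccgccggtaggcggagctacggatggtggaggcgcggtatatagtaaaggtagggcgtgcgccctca
Atp1b3: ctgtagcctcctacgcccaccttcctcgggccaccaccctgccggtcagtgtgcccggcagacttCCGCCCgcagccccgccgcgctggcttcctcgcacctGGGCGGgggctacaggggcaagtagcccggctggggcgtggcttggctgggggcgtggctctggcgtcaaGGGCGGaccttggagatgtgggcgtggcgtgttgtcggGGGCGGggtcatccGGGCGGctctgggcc
The Atp1b1 stretch held 2 GC boxes and 1 CCAAT box, all on the opposite strand, and the Atp1b3 stretch held 5 GC boxes and no CCAAT box. Of 32851 upstream regions of 250 bases in the RefSeq table, 32.7% held a GC box and 33.8% a CCAAT box on either strand, so neither motif is rare. The marked motifs do not overlap each other. Neither stretch held the TATA box letters TATAAA (in 12.4% of regions), a GATA motif (AGATAA, 9.99%) or an AP-1 motif (TGANTCA, 6.75%). An MCAT motif (CATTCC, 12.6%), a CArG box (1.47%) and a MEF2 motif (0.508%) were absent as well. Each was searched on both strands, and this says only that these letters are not in these stretches. Other forms of the TATA box were not searched, such as the letters tatata near the end of the Atp1b1 stretch.

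Atp1b1 stood at 609.8, 688.0 and 657.1 CPM in MI 28 d hearts, at 361.6, 345.4 and 315.8 CPM in MI 7 d hearts, and at 426.4, 417.2 and 435.9 CPM in Sham hearts. Every MI 28 d heart lay above every Sham heart and every MI 7 d heart below, with no overlap between any groups. Atp1b1 rose at 28 d against Sham by 0.61 on the log2 scale (SE 0.088, adjusted p = 0.000432) and fell by 0.32 at 7 d (SE 0.088, adjusted p = 0.00756). At 28 d against 7 d it rose by 0.93 (SE 0.089, adjusted p = 3.05e-05). The decrease at 7 d depended on the scaling, since with total counts alone the log2 fold change was 0.01 (adjusted p = 0.924). It also missed the threshold with the 3 Sham libraries summed to 1, a setting chosen after seeing the data (-0.35, adjusted p = 0.085). Over all 19 alternatives its adjusted p ran from 2.31e-05 to 0.924.

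Atp1b3 stood at 98.28, 105.3 and 100.8 CPM in MI 28 d hearts, at 136.6, 120.5 and 141.6 CPM in MI 7 d hearts, and at 73.2, 71.91 and 75.97 CPM in Sham hearts. Its highest group was MI 7 d, and no heart of one group reached into another. Atp1b3 rose at 7 d by 0.85 (SE 0.078, adjusted p = 6.04e-06) and at 28 d by 0.46 (SE 0.078, adjusted p = 0.000974), and it fell by 0.39 at 28 d against 7 d (SE 0.077, adjusted p = 0.00206). With the Sham libraries summed to 1, the 28 d value of Atp1b3 was 0.42 with an adjusted p of 0.0608, the highest of a range that began at 2.84e-05 over the alternatives.

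The balance between these beta subunit genes was also taken as the ratio of Atp1b3 to Atp1b1 counts within each library, which needs no scaling between libraries. The ratio was 0.161, 0.153 and 0.153 in MI 28 d hearts, 0.378, 0.349 and 0.448 in MI 7 d hearts, and 0.172, 0.172 and 0.174 in Sham hearts. Thus Atp1b3 counts stood highest against Atp1b1 counts at 7 d and lowest at 28 d, without overlap. The mean log2 ratio differed by 1.17 at 7 d and by -0.15 at 28 d against Sham, and by -1.32 at 28 d against 7 d. In a two-sided exact permutation test each of these gave p = 0.1, the smallest that 3 against 3 hearts allow, and the adjusted p over the 6 ratio tests was 0.1.

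**Figure D2:**
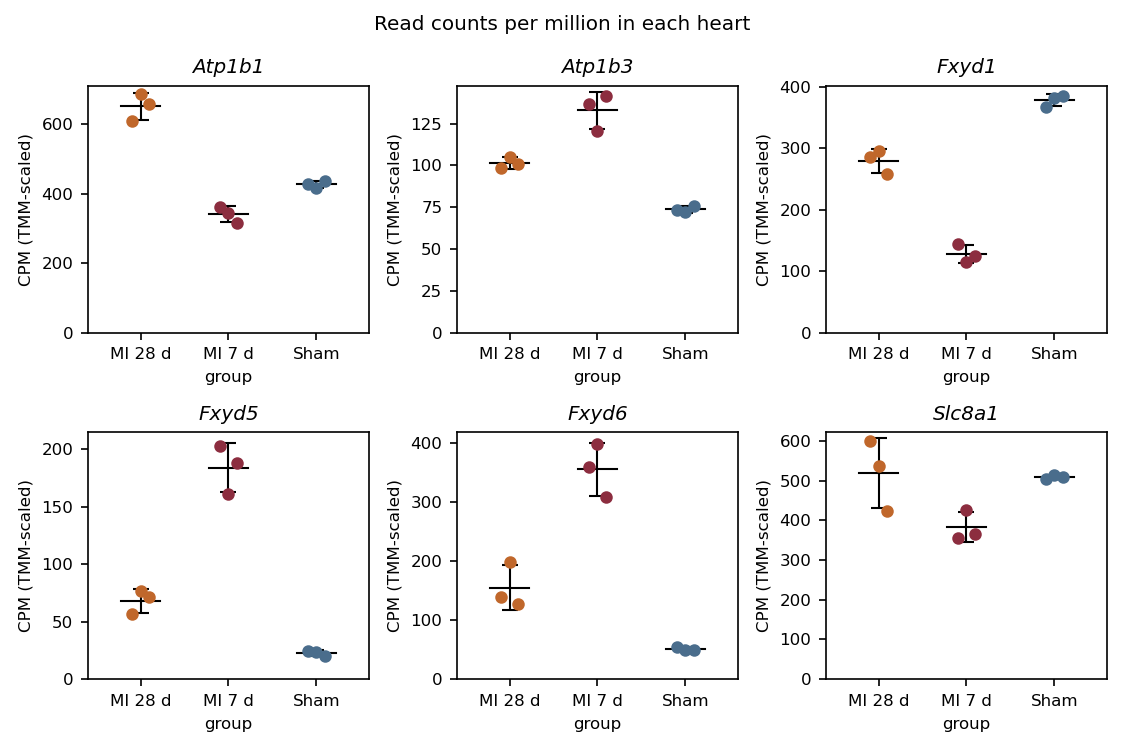
TMM-scaled CPM (vertical axis from 0) of each gene in each heart, with 1 point per heart and a line and bars for the mean and SD of 3 hearts. Atp1b1 is highest in MI 28 d, Atp1b3, Fxyd5 and Fxyd6 are highest in MI 7 d, and Fxyd1 is highest in Sham; Slc8a1 overlaps between MI 28 d and the other groups.

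The 3 largest changes at 7 d among the 6 genes were those of the FXYD genes. Fxyd1 encodes phospholemman, the main FXYD protein of heart muscle, which restrains the pump until it is phosphorylated by protein kinase A or C. The gene lies on chromosome 7 at 31051678 to 31057199, minus strand. It stood at 285.4, 295.4 and 257.5 CPM in MI 28 d hearts, at 143.8, 115.3 and 125.0 CPM in MI 7 d hearts, and at 367.4, 381.1 and 385.3 CPM in Sham hearts. All 3 groups were apart, with MI 7 d lowest and Sham highest. Fxyd1 fell by 1.56 at 7 d (SE 0.10, adjusted p = 8.02e-07) and by 0.44 at 28 d (SE 0.099, adjusted p = 0.00475) against Sham, and it was higher by 1.13 at 28 d than at 7 d (SE 0.10, adjusted p = 2.15e-05). The smaller change at 28 d missed the threshold with total counts alone (-0.19, adjusted p = 0.0877) and with the Sham libraries summed to 1 (-0.47, adjusted p = 0.074), in a range over the alternatives from 2.02e-05 to 0.0877.

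Fxyd5, also called dysadherin, encodes a FXYD protein with a long extracellular part that is known for weakening cell-cell adhesion as well as for acting on the pump. It lies on chromosome 7 at 31032722 to 31042481, minus strand. It stood at 56.41, 76.43 and 71.49 CPM in MI 28 d hearts, at 202.9, 160.8 and 188.1 CPM in MI 7 d hearts, and at 24.78, 23.91 and 19.69 CPM in Sham hearts. The lowest MI 28 d heart was more than double the highest Sham heart, and the lowest MI 7 d heart more than double the highest MI 28 d heart. Fxyd5 rose 8.07-fold at 7 d (log2 3.01, SE 0.15, adjusted p = 1.86e-07) and 2.99-fold at 28 d (log2 1.58, SE 0.14, adjusted p = 4.22e-05). It fell by 1.43 at 28 d against 7 d (SE 0.14, adjusted p = 3.13e-05).

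Fxyd6, also called phosphohippolin, encodes a FXYD protein described mainly in brain and inner ear. It lies on chromosome 9 at 45370185 to 45396159, plus strand. It stood at 139.2, 198.1 and 126.5 CPM in MI 28 d hearts, at 358.6, 397.7 and 308.3 CPM in MI 7 d hearts, and at 54.79, 49.93 and 49.1 CPM in Sham hearts. As for Fxyd5, the MI 7 d hearts were highest, the Sham hearts lowest and no groups overlapped. Fxyd6 rose 6.92-fold at 7 d (log2 2.79, SE 0.18, adjusted p = 6.72e-07) and 3.02-fold at 28 d (log2 1.59, SE 0.17, adjusted p = 9.78e-05), and it fell by 1.2 at 28 d against 7 d (SE 0.16, adjusted p = 0.00024). For Fxyd5 and Fxyd6, all changes passed the test under every alternative run.

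Cell type markers moved as well. The 12 cardiomyocyte markers, all detected in every group, summed to 50200 to 81800 CPM in MI 28 d, 22900 to 28700 CPM in MI 7 d and 125000 to 128000 CPM in Sham, with 12 of 12 lower at 7 d and 9 of 12 lower at 28 d. The 10 fibroblast markers summed to 6220 to 12200 CPM in MI 28 d, 35900 to 47000 CPM in MI 7 d and 2220 to 2280 CPM in Sham, with 10 of 10 higher at 7 d and 9 of 10 higher at 28 d. The 10 monocyte and macrophage markers summed to 998 to 1560 CPM in MI 28 d, 4630 to 5700 CPM in MI 7 d and 562 to 633 CPM in Sham, again with 10 and 9 of 10 higher. No marker of these 3 lists was at 0 in any group. Of 8 endothelial markers 5 were lower at 7 d and 6 at 28 d, and of 6 mesothelial markers 5 and 6 were higher. The groups thus stand in the same order for Fxyd1 as for the cardiomyocyte sum, and in the same order for Atp1b3, Fxyd5 and Fxyd6 as for the fibroblast and macrophage sums. Atp1b1 stands apart from both orders, being highest at 28 d, when the cardiomyocyte sum was below that of Sham. The means of Slc8a1 were 520.0 CPM in MI 28 d, 383.0 CPM in MI 7 d and 509.6 CPM in Sham. As for the cardiomyocyte sum, MI 7 d was lowest. The order of MI 28 d and Sham is not settled for Slc8a1 (log2 fold change 0.03, SE 0.13, edgeR adjusted p = 0.863). Its MI 28 d hearts overlapped both other groups. The part of these cell types in the results was not tested. In bulk RNA, fewer cells of a type and less RNA per cell cannot be told apart.

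Fxyd5 and Fxyd1 are near neighbours. On the minus strand of chromosome 7, Fxyd5, Fxyd7 and Fxyd1 follow each other, with 31 bases between Fxyd5 and Fxyd7, 210 bases between Fxyd7 and Fxyd1, and 9196 bases between Fxyd5 and Fxyd1. At this distance the outer genes moved in opposite directions at both times, though at 28 d Fxyd1 did not pass with total counts alone. Fxyd7, a FXYD gene known from brain, lies between them and was scarce, at 9, 20 and 26 counts in MI 28 d, 12, 11 and 14 counts in MI 7 d, and 7, 5 and 3 counts in Sham hearts. Its log2 fold change was 0.44 at 7 d (adjusted p = 0.417) and 1.34 at 28 d (adjusted p = 0.03). The second lost its call without MI 28 d replicate 2 or 3 or Sham replicate 2 or 3 (adjusted p between 0.0744 and 0.116, in a range over all alternatives from 0.00839 to 0.156).

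The ratio of Fxyd5 to Fxyd1 counts was 0.198, 0.259 and 0.278 in MI 28 d hearts, 1.41, 1.4 and 1.5 in MI 7 d hearts, and 0.0674, 0.0627 and 0.0511 in Sham hearts. Fxyd5 thus had more counts than Fxyd1 in each MI 7 d heart and far fewer in each Sham heart. The ratio was 23.9-fold higher at 7 d and 4.03-fold higher at 28 d than in Sham (log2 differences of 4.58 and 2.01), and it differed by -2.57 on the log2 scale at 28 d against 7 d. Each comparison gave p = 0.1 in the two-sided exact permutation test, again the smallest possible, with an adjusted p of 0.1.

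Among the summed CPM per kb of Fxyd1, Fxyd5 and Fxyd6, with lengths of the longest principal transcripts, Fxyd1 made up 75.8 ± 2.75% in MI 28 d, 36.7 ± 2.29% in MI 7 d and 92.7 ± 0.694% in Sham (SD, n = 3). Fxyd5 made up 9.78 ± 1.48% in MI 28 d, 27.9 ± 2.5% in MI 7 d and 2.96 ± 0.392% in Sham. Fxyd6 made up 14.4 ± 2.25% in MI 28 d, 35.4 ± 4.69% in MI 7 d and 4.36 ± 0.342% in Sham. Fxyd1 thus made up most of this sum in every MI 28 d and Sham heart and in no MI 7 d heart. With lengths of the union of exons instead, the Fxyd1 share was 72.4% in MI 28 d, 33.5% in MI 7 d and 91.4% in Sham. The Fxyd5 share was then 4.82% in MI 28 d, 13.1% in MI 7 d and 1.5% in Sham, and the Fxyd6 share 22.8% in MI 28 d, 53.3% in MI 7 d and 7.14% in Sham. Among beta subunit genes, Atp1b1 made up 80.2 ± 0.934% in MI 28 d, 63.3 ± 2.74% in MI 7 d and 75.9 ± 0.642% in Sham, and Atp1b3 made up 16.2 ± 0.436% in MI 28 d, 32.0 ± 2.76% in MI 7 d and 17 ± 0.234% in Sham.

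**Figure D3:**
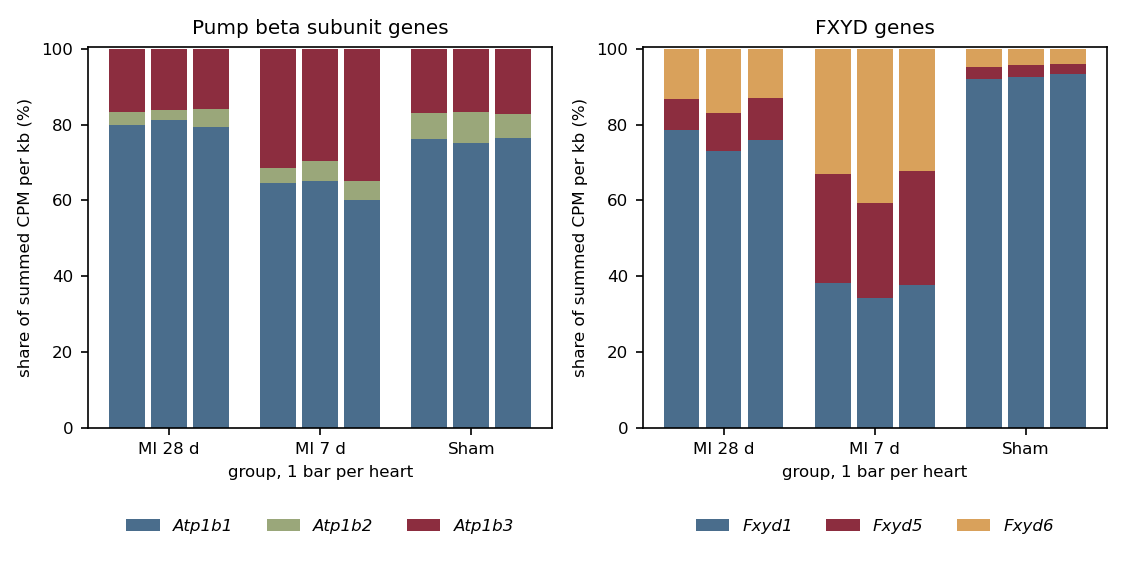
Share of summed CPM per kb (vertical axis, %, from 0 to 100) in each heart (1 stacked bar per heart, 3 per group) of the pump beta subunit genes on the left and of 3 FXYD genes on the right, with lengths of the longest principal transcripts. Fxyd1 takes 73.0 to 78.5% in MI 28 d, 34.1 to 38.3% in MI 7 d and 92.0 to 93.4% in Sham, and Atp1b3 takes its largest share in MI 7 d, 29.5 to 34.9%.

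Slc8a1 encodes NCX1, the sodium-calcium exchanger of the cardiomyocyte surface. It lies on chromosome 17 at 81373105 to 81738377, minus strand, and shares 304 exon bases with other annotated genes. Slc8a1 stood at 599.0, 536.6 and 424.4 CPM in MI 28 d hearts, at 356.3, 425.9 and 366.9 CPM in MI 7 d hearts, and at 505.1, 514.0 and 509.6 CPM in Sham hearts. The MI 28 d hearts spread widely, from below every Sham heart to above all of them, and the lowest of them lay just under the highest MI 7 d heart. Slc8a1 fell by 0.41 at 7 d against Sham (SE 0.13, adjusted p = 0.0155), with no overlap between groups. At 28 d against Sham its log2 fold change was 0.03 (SE 0.13, adjusted p = 0.863), and it was higher by 0.44 at 28 d than at 7 d (SE 0.13, adjusted p = 0.0161). The decrease at 7 d had the largest adjusted p of the 6 and missed the threshold without MI 7 d replicate 1 (-0.36, adjusted p = 0.0549), without MI 7 d replicate 3 (-0.38, adjusted p = 0.0511), with the Sham libraries summed to 1 (-0.44, adjusted p = 0.116) and with total counts alone (-0.08, adjusted p = 0.53). The difference between 28 d and 7 d likewise missed it without MI 7 d replicate 1 (0.39, adjusted p = 0.0577) or 3 (0.41, adjusted p = 0.0531). That difference also missed the threshold with only the libraries compared, a fit without the Sham libraries (adjusted p = 0.085). Over the alternatives the adjusted p of Slc8a1 ran from 0.00112 to 0.53 at 7 d against Sham and from 0.000681 to 0.085 at 28 d against 7 d.

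Set on a common scale of CPM per kb of the longest principal transcript, Fxyd1 had the highest level in Sham hearts at 609.5 ± 15.1, followed by Atp1b1 at 165 ± 3.62, Slc8a1 at 160.2 ± 1.40, Atp1b3 at 37.0 ± 1.04, Fxyd6 at 28.7 ± 1.72 and Fxyd5 at 19.4 ± 2.32 (SD, n = 3). No neighbours in this order overlapped in Sham. In MI 28 d hearts the order was Fxyd1 at 451 ± 31.7, Atp1b1 at 253 ± 15.3, Slc8a1 at 163 ± 27.8, Fxyd6 at 86.5 ± 21.4, Fxyd5 at 58.1 ± 8.90 and Atp1b3 at 50.9 ± 1.79, of which the last pair overlapped. In MI 7 d hearts Fxyd1 (206 ± 23.4), Fxyd6 (198 ± 25.1), Fxyd5 (157 ± 18.2), Atp1b1 (132 ± 9.01) and Slc8a1 (120.4 ± 11.8) each overlapped the next in order, and only Atp1b3 (66.7 ± 5.53) lay apart below them. With lengths of the union of exons, Fxyd1 and Atp1b1 were again first and second in MI 28 d hearts, where they overlapped, and in Sham hearts, and Fxyd5 was again last in Sham hearts. The other places in Sham and MI 28 d hearts changed, and in MI 7 d hearts the levels then ran from 198.0 for Fxyd6 to 20.6 for Slc8a1, with an overlap only between Atp1b1 and Fxyd1.

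Other genes of sodium and calcium transport were taken from 7 lists with 55 genes, of which 42 could be tested. At 7 d against Sham 11 of them rose and 20 fell, with a median log2 fold change of -0.36 beside 0.06 over all genes. At 28 d 11 rose and 13 fell, with a median of -0.06 beside 0.05. These 31 genes at 7 d and 24 at 28 d are shares close to the 74.4% and 55.1% of all genes that passed. With total counts alone 13 were higher and 15 lower at 7 d, and 12 higher and 6 lower at 28 d, so the balance at 28 d turns with the scaling. Without Sham replicate 2 only 16 of 42 passed at 28 d, beside 6691 of 14601 genes. Without Sham replicate 3 it was again 16 of 42, beside 6522 of 14611 genes. Fewer still passed with the Sham libraries summed to 1, both of these genes and of all genes. At 28 d against 7 d 20 rose and 6 fell, beside 29.1% and 26.1% of all genes. The median there was 0.29 beside 0.03 over all genes.

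Atp1b2, the beta-2 subunit best known from glia, averaged 32.2 CPM in MI 28 d, 28.0 CPM in MI 7 d and 44.1 CPM in Sham. It fell at 7 d (log2 -0.65, adjusted p = 0.00967), though not with total counts alone (log2 -0.32, adjusted p = 0.188). The 7 d call was also lost with the Sham libraries summed to 1 (log2 -0.68). At 28 d the log2 fold change of Atp1b2 was -0.45 (adjusted p = 0.0639). With all libraries kept, the 28 d value passed with DESeq2 (-0.487, adjusted p = 0.0343) and voom (-0.479, adjusted p = 0.0363). It also passed, narrowly, with DESeq2-type size factors (-0.486, adjusted p = 0.0499). Without MI 28 d replicate 3 the 28 d value of Atp1b2 was -0.71 and passed (adjusted p = 0.00169); over the alternatives its adjusted p ran from 0.000476 to 0.188 at 7 d and from 0.00146 to 0.434 at 28 d. Fxyd2, the gamma subunit of kidney, averaged 1.31 CPM in MI 28 d, 1.08 CPM in MI 7 d and 1.99 CPM in Sham. It passed in neither comparison in the main fit (log2 -0.87 with adjusted p = 0.091 at 7 d, and -0.59 with adjusted p = 0.27 at 28 d). At 7 d it passed with voom (-0.885, adjusted p = 0.0285) and with only the libraries compared (-0.862, adjusted p = 0.0147). Without MI 28 d replicate 3 it passed in both, with an adjusted p of 0.0167 at 7 d and of 0.0106 at 28 d (log2 -1.3), where all alternatives gave 0.014 to 0.297 and 0.0106 to 0.593. Atp1b4, Fxyd3, Fxyd4 and Slc8a3 had too few counts to be tested.

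Of the other sodium-calcium exchangers 5 could be tested, and 2 rose at 7 d and 3 at 28 d, beside 39.0% and 29.5% of all genes. Slc8b1, the exchanger of mitochondria, rose by 1.21 at 7 d (adjusted p = 1.17e-05), and its 28 d value of 0.33 (adjusted p = 0.0471) lost its call under 13 of 19 alternatives, among them leaving out Sham replicate 2 or 3, MI 7 d replicate 3 or any MI 28 d replicate (adjusted p between 0.0592 and 0.187). Slc8a2, an exchanger known from brain, rose at 28 d by 1.09 (adjusted p = 0.00406) and had a log2 fold change of -0.27 at 7 d (adjusted p = 0.344). With the Sham libraries summed to 1, the 28 d value of Slc8a2 was 1.05 and lost its call. Slc24a2, a potassium-dependent exchanger, averaged 5.18 CPM in MI 28 d and 1.94 CPM in Sham, and rose at 28 d by 1.42 (adjusted p = 0.000618), with 0.04 at 7 d (adjusted p = 0.88). Slc24a3, of the same family, rose at 7 d by 1.30 (adjusted p = 0.0252), a call that was lost without MI 7 d replicate 2 or any 1 of the Sham replicates, and had 0.05 at 28 d (adjusted p = 0.934). Without MI 28 d replicate 3, Slc24a3 was lower at 28 d and passed (-0.89, adjusted p = 0.00693).

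Of 13 sodium-proton exchangers and their partners 6 were higher and 5 lower at 7 d, beside 39.0% and 35.4% of all genes, and 5 were higher and 3 lower at 28 d, beside 29.5% and 25.6%. Slc9b2, a sodium-proton antiporter, had 47 counts over the MI 28 d hearts, 174 over the MI 7 d hearts and 0 in all Sham hearts. Against a floor of 3 counts over the Sham group it was at least 11.0-fold higher at 28 d and at least 32.1-fold higher at 7 d. Slc9a2 (NHE2) fell by 3.33 at 7 d (adjusted p = 0.000151) and by 1.65 at 28 d (adjusted p = 0.0108). Without MI 28 d replicate 1 the 28 d value of Slc9a2 was -2.51 (adjusted p = 6.67e-05), and with the Sham libraries summed to 1 its call was lost (adjusted p = 0.096). Tesc, which encodes a calcium-binding partner of the NHE1 exchanger, fell by 2.35 at 7 d (adjusted p = 3.31e-06) and by 0.64 at 28 d (adjusted p = 0.0155). The 28 d call of Tesc was lost with total counts alone (adjusted p = 0.0633) and with the Sham libraries summed to 1 (-0.68). Of 7 bicarbonate and chloride transporters 1 rose and 4 fell at 7 d, and 1 rose and 3 fell at 28 d, against the same background. Slc12a7, a potassium-chloride cotransporter, fell by 1.84 at 7 d (adjusted p = 2.74e-06) and by 0.88 at 28 d (adjusted p = 0.000889). Slc12a2, the sodium-potassium-chloride cotransporter NKCC1, fell by 0.95 at 7 d (adjusted p = 1.28e-05) and by 0.65 at 28 d (adjusted p = 0.000488). Slc4a4, a sodium-bicarbonate cotransporter, fell by 1.43 at 7 d (adjusted p = 5.29e-06) and had -0.12 at 28 d (adjusted p = 0.431). The riser was Slc12a4, another potassium-chloride cotransporter, by 0.33 at 7 d (adjusted p = 0.00453) and 0.76 at 28 d (adjusted p = 0.000111).

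Of 12 genes for anchors and regulators of the pump and exchanger, 10 fell and 1 rose at 7 d (median log2 fold change -0.83), where 35.4% of all genes were lower and 39.0% higher. At 28 d 7 fell and 0 rose (median -0.25), where 25.6% of all genes were lower and 29.5% higher. Ank2, the ankyrin that holds pump and exchanger in the myocyte membrane, fell by 2.39 at 7 d (adjusted p = 1.68e-06) and by 0.94 at 28 d (adjusted p = 0.00146). Prkaca, the catalytic subunit of protein kinase A, which phosphorylates phospholemman, fell by 1.70 at 7 d (adjusted p = 1.95e-06) and by 0.69 at 28 d (adjusted p = 0.00154). Stk39, a kinase of chloride cotransporters, fell by 1.45 at 7 d (adjusted p = 3.5e-05) and by 0.61 at 28 d (adjusted p = 0.0127). The 28 d call of Stk39 was lost with total counts alone (adjusted p = 0.0587) and with the Sham libraries summed to 1 (-0.64). Agrn, an extracellular matrix protein that can bind the pump, rose by 0.61 at 7 d (adjusted p = 0.0011). The cardiomyocyte marker sum was lower at the same times, as given above. Of the 2 tested plasma membrane calcium pumps Atp2b1 rose, by 0.41 at 7 d (adjusted p = 0.0044) and by 0.29 at 28 d (adjusted p = 0.034). The 7 d call was lost with the Sham libraries summed to 1 (0.38). The 28 d call was lost under 9 of 19 alternatives, among them leaving out any Sham replicate or MI 28 d replicate 2 or 3 (adjusted p between 0.0504 and 0.12).

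**Figure D4:**
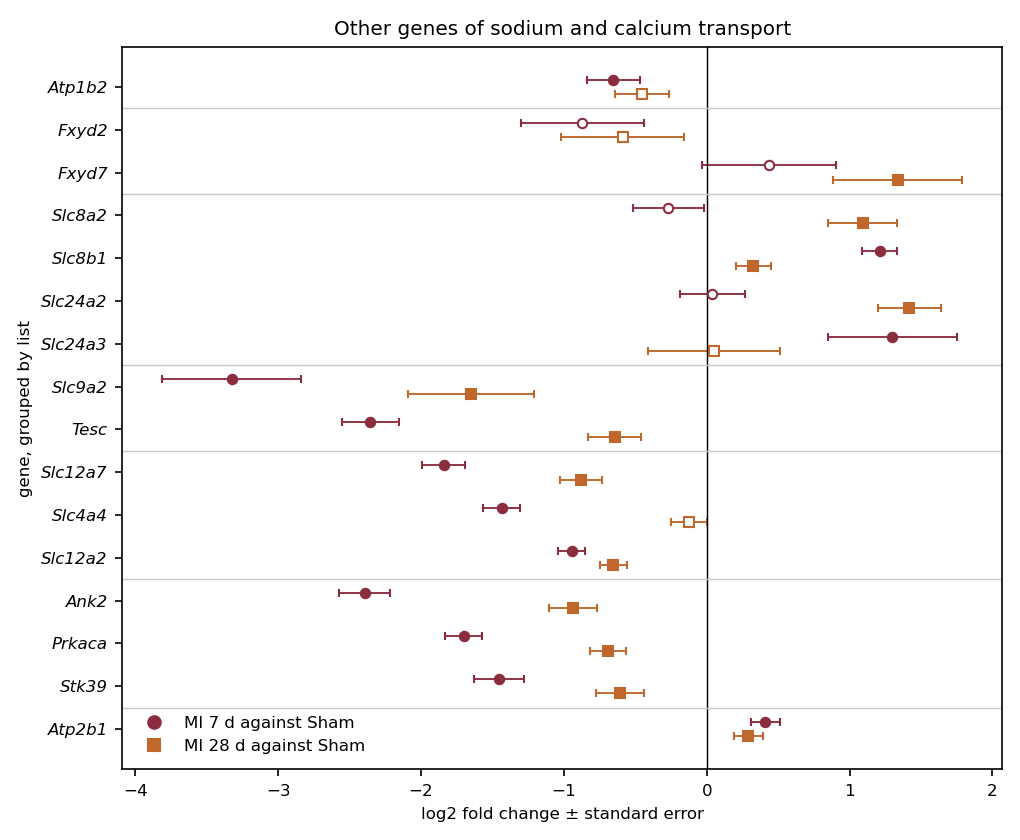
Fitted log2 fold change with 1 standard error (horizontal axis) of 16 named sodium and calcium transport genes at MI 7 d (circles) and MI 28 d (squares) against Sham, grouped by list between grey lines, from edgeR with TMM scaling; filled symbols passed the adjusted p threshold of 0.05. Slc9b2 is left out because it has 0 counts in Sham. Slc9a2 (-3.33 at 7 d) and Ank2 (-2.39 at 7 d) lie far to the left and Slc24a2 (1.42 at 28 d) to the right, and each plotted gene that passed at 7 d lies nearer to 0 at 28 d. Slc12a4, named in the text but not plotted, went the other way (0.33 at 7 d and 0.76 at 28 d).

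For each of the 6 genes, the 3 genes with the closest profile over the 9 libraries were looked up among 11899 candidates, by the root mean square difference of centred log2 CPM. Fxyd1 ran closest to Aldoa (0.0656, r = 0.997), the glycolytic enzyme aldolase A, then Ghitm (0.0681) and Dmpk (0.0782), a protein kinase of muscle. Fxyd5 ran closest to Dok3 (0.0794, r = 0.998), an adaptor of immune cells, then Arrb2 (0.134) and Dap (0.142), and Fxyd6 to Pdlim2 (0.113, r = 0.995), Rnase6 (0.129) and Emp1 (0.139). Atp1b3 ran closest to Sdf4 (0.053, r = 0.989), Smad1 (0.0616) and Pold3 (0.0629), Atp1b1 to Etv5 (0.0847, r = 0.979), Synm (0.0852) and Slc25a23 (0.0968), and Slc8a1 to Tmx4 (0.0705, r = 0.979), AU022252 (0.0813) and Rhoq (0.0815). Among the 6 genes themselves, Fxyd5 and Fxyd6 were the closest pair (0.238, r = 0.983) and Fxyd1 and Fxyd5 the farthest apart (1.88, r = -0.94). These likenesses are descriptions over 9 libraries that share 3 groups, and they carry no test.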

How the data were processed

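RNA was extracted with TRIzol and made into libraries with the KAPA RNA HyperPrep kit, per the labels' protocols. The deposited values are raw read counts per gene symbol, made by the authors with Trim Galore, STAR and featureCounts on mm10, per the submitters' processing notes; their versions, the annotation, the strand setting and the handling of multi-mapping reads: not given in the sources used here. Reads of paralogs and overlapping genes may therefore be split unevenly.

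Low genes were removed with filterByExpr on the 3 groups (minimum count 10 and minimum total 15). Of the 24964 genes, 5629 had 0 counts everywhere and 14347 were tested, among them all 6 genes described. The fit used edgeR 4.0.16 (R 4.3.3) with TMM scaling, 1 coefficient per group over all 9 libraries, glmQLFit and glmQLFTest (two-sided), and Benjamini-Hochberg adjustment over all genes tested. It was tested on simulated data in which all groups had the same spread for a given gene. That test therefore does not cover the unequal spread of these groups. The alternatives were DESeq2 1.42.0, limma 3.58.1 (voom with group weights), other scalings and filters, only the libraries compared, a replicate block and leaving out each library; leaving out Adipoq-rich libraries and summing the Sham libraries were added after seeing the data. Summing left a single Sham library and leaving out the Adipoq-rich libraries a single MI 28 d library, each assumed to vary like the other groups.

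The genes and lists were chosen with earlier results of these data known. The text names each of the 6 genes, other detected pump, FXYD and SLC8 genes (some results of the rule are not reported here), the up to 3 largest passing changes of each further list, and a single member moving against its list. Lengths, positions and exon overlaps come from GENCODE M21, upstream sequences from RefSeq. Each edgeR p-value rests on the spread between 3 libraries per group, pooled over the groups. Counting error is small beside that spread in the MI groups but not in Sham. The permutation p-values of the count ratios use only the libraries compared, with no pooled spread.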

Additional observations from a re-analysis of the deposited data

Results flagged for a closer look

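For each of the 6 genes the change from Sham differed between the times in the main fit. The test was that of the difference itself, the MI 28 d against MI 7 d contrast of edgeR. For Atp1b1 the change at 28 d exceeded that at 7 d by 0.93 on the log2 scale (adjusted p = 3.05e-05) and had the opposite sign, with 3 of 3 MI 28 d hearts above and 3 of 3 MI 7 d hearts below every Sham heart; with total counts alone the 7 d value was 0.01. For Fxyd1 the difference was 1.13 (adjusted p = 2.15e-05) and for Slc8a1 0.44 (adjusted p = 0.0161). The Slc8a1 call was lost without MI 7 d replicate 1 or 3 (adjusted p = 0.0577 and 0.0531). It was also lost with only the libraries compared, a fit without the Sham libraries (adjusted p = 0.085). For Atp1b3 the difference was -0.39 (adjusted p = 0.00206), for Fxyd5 -1.43 (adjusted p = 3.13e-05) and for Fxyd6 -1.20 (adjusted p = 0.00024). Since 55.2% of all genes tested passed this contrast, such a difference is common in these hearts. With 3 hearts per group, no single heart was screened as an outlier.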

How the results depend on the processing

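Over 19 alternatives the values of the 6 genes were computed 336 times: 320 kept their direction and side of the threshold, 11 lost their call and 5 reversed. Slc8a1 at 28 d against Sham, not past the threshold in any of them, was -0.00502 with DESeq2, -0.00479 with DESeq2-type size factors and -0.00579 with Sham summed, and ran from -0.0942 (without MI 28 d replicate 1) to 0.156 when 1 library was left out. Atp1b1 at 7 d was 0.00998 with total counts alone. With Sham summed, 3 of the 6 genes passed at 28 d (3 higher, 0 lower), and 3717 of all genes (1828 higher, 1889 lower).

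Of 637 values of named pathway genes, 573 kept both, 44 lost a call, 11 gained one and 9 reversed. With total counts alone these were Slc8a2 at 7 d (0.0622) and Slc4a4 at 28 d (0.12). Slc24a2 at 7 d ran from -0.0254 (without Sham replicate 3) to 0.137 when 1 library was left out, with -0.00211 without Sham replicate 1. Slc24a3 at 28 d was -0.0982 with the replicate block, -0.243 with voom and -1.28 without Adipoq-rich libraries (a single MI 28 d heart), and ran from -0.885 (without MI 28 d replicate 3) to 0.427 when 1 library was left out. The causes were not tested.

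Leaving out 1 library gave 5 to 6 of the 6 genes at 7 d, 5 at 28 d and 5 to 6 between the times. The labels do not say that same-numbered libraries are paired. Their 9 pairs correlated at -0.0909 to 0.304 in their deviations from the group means, with 2 over 0.1, and the 18 other pairs at -0.582 to 0.454. Between MI 28 d and MI 7 d the same-numbered pairs stood at -0.0909, 0.262 and 0.304. These values cannot settle whether the numbers pair mice, since the Sham libraries varied little. With a replicate block 6 of the 6 genes passed at 7 d, 5 at 28 d and 6 between the times, and 10583, 7688 and 7785 of all genes.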

Other observations

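MI 28 d replicate 3 held more counts of Slc8a3 and Fxyd3, both scarce, than any other library. Slc8a3 had 3, 4 and 38 counts in MI 28 d replicates 1 to 3, 4, 4 and 6 counts in MI 7 d hearts, and 3, 0 and 1 counts in Sham hearts. Fxyd3 had 2, 4 and 13 counts in MI 28 d, 2, 0 and 0 in MI 7 d, and 1, 0 and 0 in Sham hearts. The same library had the highest sums of mesothelial markers (783 CPM, against 113 and 135 CPM in the other MI 28 d hearts) and of Schwann cell and neuron markers (230 CPM, against 88.3 and 88.5 CPM). Their part in these counts was not tested.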
